A study of Mus musculus with 9 samples.

Results

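Histone lysine demethylases are enzymes that take methyl groups off lysines of the histone tails. The 10 genes described here, Kdm1a, Kdm2a, Kdm2b, Kdm3a, Kdm3b, Kdm4a, Kdm4b, Kdm4c, Kdm5b and Kdm6b, were taken by symbol from a table of 46517 genes, where each was listed once. Their expression was compared in neutrophils of bone marrow, blood and pancreatic tumors, with 3 libraries for each compartment and 9 in all. The cells came from C57BL/6 mice that all carried an orthotopic pancreatic ductal adenocarcinoma (PDAC), and they were sorted at day 27 after the tumor cells were transplanted. No mouse without a tumor was included in these groups. The bone marrow cells were sorted as Ly6G.hi and the blood and tumor cells as Ly6G+, in each case from live CD45+ cells without the lymphocyte markers CD3, B220 and NK1.1. Each library was made from the pooled cells of several mice, so the spread between libraries is a spread between pools.

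A methyl group on a histone lysine is put on by a methyltransferase and can be taken off by a demethylase that recognises that lysine. Kdm1a uses the cofactor FAD, whereas the other genes encode JmjC-domain enzymes, which need iron, oxygen and 2-oxoglutarate. In other cells, Kdm3a and Kdm4b are known targets of hypoxia-inducible factor, and Kdm6b is known to be induced by inflammatory stimuli in macrophages.

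Within this gene family the compartments differed gene by gene rather than in a single direction. Kdm3a rose from bone marrow to blood and again from blood to tumor, to a level 4.63-fold above that of bone marrow. Kdm1a was also higher in tumor than in blood and in bone marrow, calls that some of the alternative settings lost. Kdm4a and Kdm4c were lower in tumor than in both, but the call of Kdm4c against blood was lost with plain library totals. Kdm2a, Kdm2b and Kdm3b were highest in blood and fell in tumor to levels whose difference from bone marrow did not pass the test. The calls in blood against bone marrow were lost in 7 of 15 alternatives for Kdm2b and 7 of 22 for Kdm3b. The fall of Kdm2a was not called with plain library totals, and Kdm2a and Kdm2b each differed between tumor and bone marrow under 1 other scaling. Kdm6b was at or near the top of the family in every compartment, and its difference between tumor and blood depended on the settings.

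Values are log2 FPKM, that is fragments scaled to gene length and library size, tested with limma, and a gene was called when its Benjamini-Hochberg adjusted p over all genes tested was under 0.05. The main test took genes whose log2 FPKM exceeded 0 in 3 libraries or more, which left 7794 genes and 6 of the 10 demethylase genes. Kdm1a, Kdm2b, Kdm4b and Kdm4c did not reach it. The length behind the FPKM was the whole genomic span for 84.5% of genes, these 4 included, and lowers the values of genes with long introns. These 4 genes were read from the same fit on the 17714 genes that had 5 or more reads in some library, called the reads filter below. Of the 6 genes over the main filter, Kdm3b and Kdm4a passed it through their blood libraries alone.

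Between 4580807 and 7949367 reads per library were recovered. Pearson's r between libraries over the 7794 genes was 0.875 to 0.933 within compartments and 0.415 to 0.793 between them. Of the neutrophil markers, Ly6g had 4527 to 5241 reads per bone marrow library, 580 to 654 per blood library and 200 to 456 per tumor library, and Csf3r had 13802 to 72754 in all 9 libraries. The bone marrow libraries held 43699 to 45466 RPM (reads scaled to library size) of 10 mature neutrophil markers in sum, the blood libraries 34917 to 36336 and the tumor libraries 17668 to 21799. Over 10 immature neutrophil markers the sums were 72309 to 80369, 1886 to 2973 and 6723 to 10608. The tumor libraries also held 3066 to 6538 RPM of 11 tumor epithelium markers, 858 to 3596 of 10 acinar markers, 1285 to 1553 of 10 fibroblast markers and 115 to 140 of 8 endothelium markers. In bone marrow and blood the epithelium sum was 8.02 to 149, the highest value being in blood replicate 2, which held 98 Epcam reads. Blood libraries held 680 to 909 RPM of 8 platelet markers and 1317 to 1517 of 10 macrophage and monocyte markers, against 507 to 641 of the latter in tumor. These lists moved with the compartments that are compared here, and their part in the differences was not tested. In bulk RNA, fewer cells of a type and less RNA per cell cannot be told apart.

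Counts over the 10 genes are given with the reads filter, because Kdm3b and Kdm4a had passed the main filter through the compartment where they were highest. In tumor against blood, 2 of the 10 genes were called higher and 6 lower, where 52.6% of all genes were called, 32.4% higher and 20.2% lower. The median log2 fold change of the 10 genes was -0.77, against 0.50 over all genes of that filter and -0.17 over the 7794 genes of the main filter. In tumor against bone marrow, 2 genes were higher and 2 lower, where 43.7% were called, 25.2% higher and 18.4% lower. In blood against bone marrow, 4 of 10 were higher and 0 lower, where 28.9% were called, 12.6% higher and 16.3% lower. For the single genes read with the main filter, the shares of all genes called were 62.6% in tumor against blood, 28.1% higher and 34.5% lower. They were 55.3% in tumor against bone marrow, 22.4% higher and 32.9% lower, and 44.2% in blood against bone marrow, 20.6% higher and 23.6% lower. In tumor against both other compartments at once, 2 genes were higher and 2 lower with the reads filter, beside 19.4% and 12.3% of all genes. The libraries did not overlap for 7 of the 10 genes between tumor and blood, for 5 between tumor and bone marrow and for 6 between blood and bone marrow, where those of 59.4%, 55.7% and 45.2% of all genes with enough reads did not. With the reads filter, the median log2 fold change of the 10 genes was -0.24 for tumor vs bone marrow, against 0.29 over all genes. It was 0.42 for blood vs bone marrow, against 0.00. Over the 7794 genes of the main filter the medians of these 2 comparisons were -0.21 and -0.04. With plain totals and the reads filter, 2 of the 10 genes were higher and 3 lower in tumor than in blood. Against bone marrow 3 were higher and 2 lower. The medians were -0.32 and 0.21, against 0.95 and 0.74 over all genes. Of all 17714 genes, 7305 were then higher and 2492 lower in tumor than in blood, and 6290 and 2097 against bone marrow. With so few genes these counts are a description, and the results below are those of single genes. Each compartment enters 2 of the 3 comparisons, so the comparisons are not independent.

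**Figure D1:**
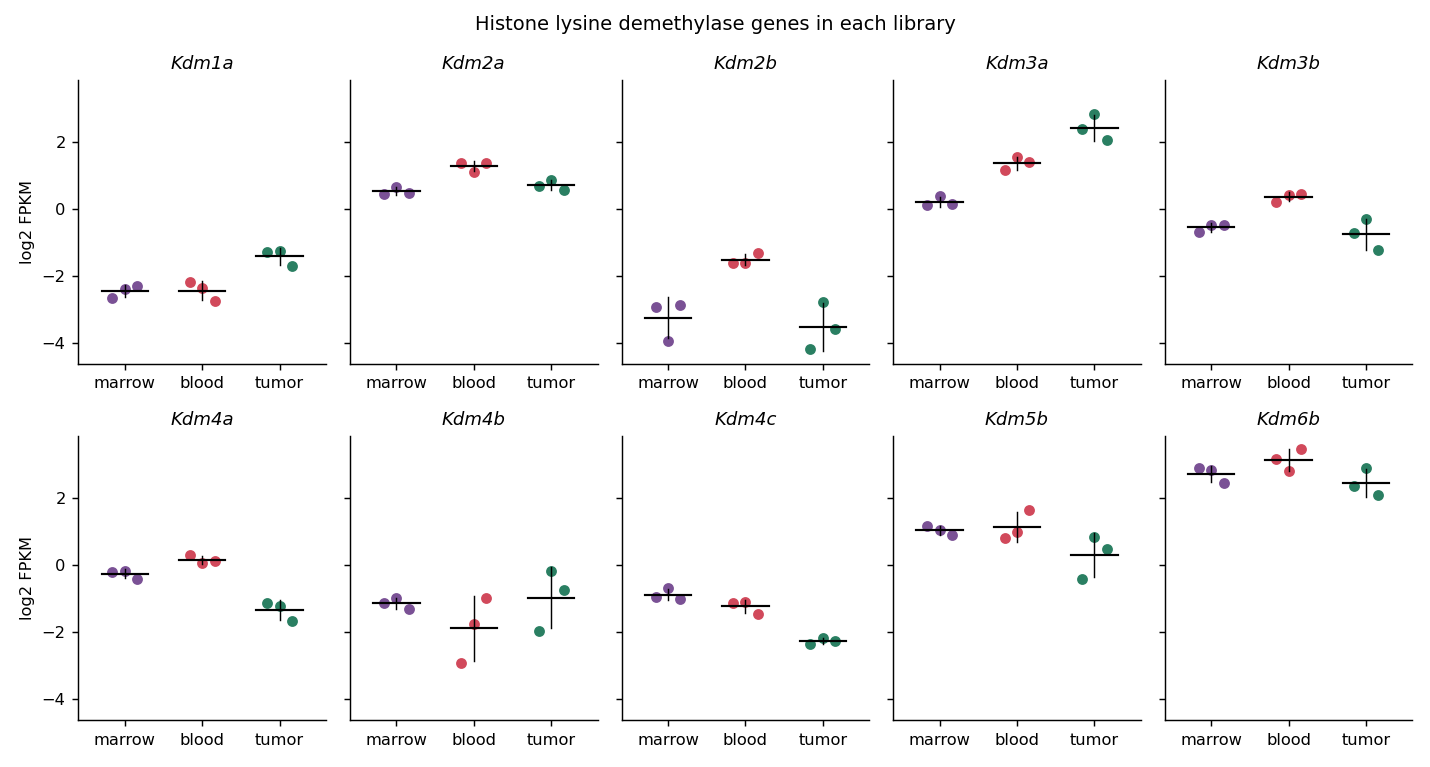
Log2 FPKM (y axis) of the 10 demethylase genes in bone marrow, blood and tumor libraries (x axis). Points are libraries, horizontal bars are means and vertical lines are 1 SD to each side of the mean of 3 libraries. Kdm3a rises stepwise to 2.06 to 2.83 in tumor, Kdm4a and Kdm4c are lowest in tumor, and Kdm2a, Kdm2b and Kdm3b are highest in blood.

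Kdm3a and Kdm3b encode the related enzymes that act on mono- and dimethylated H3K9, a mark of silent chromatin. Kdm3a (ENSMUSG00000053470.12, chr6:71588972-71632990, minus strand) had 0.11, 0.39 and 0.14 log2 FPKM in the bone marrow libraries, 1.16, 1.55 and 1.40 in blood and 2.38, 2.83 and 2.06 in tumor. In reads these were 317 to 325, 387 to 717 and 1419 to 2362, in the same order. Every tumor library was above every blood library, and every blood library was above every bone marrow library. The log2 fold change was 1.05 (SE 0.21, adjusted p = 0.00309) in tumor against blood, 2.21 (SE 0.21, adjusted p = 8.36e-05) against bone marrow, and 1.16 (SE 0.21, adjusted p = 0.00349) from bone marrow to blood. All 3 calls were kept in each of the 23 alternatives run for each comparison. With libraries scaled by their plain totals, the 2 differences of tumor were 1.5 and 2.66.

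Kdm3b (ENSMUSG00000038773.10, chromosome 18) moved otherwise. It had -0.70, -0.48 and -0.47 log2 FPKM for bone marrow, 0.21, 0.43 and 0.45 for blood and -0.73, -0.31 and -1.23 for tumor. The blood libraries stood above all others, and those of tumor and bone marrow overlapped. Kdm3b was 2.17-fold lower in tumor than in blood (log2 fold change -1.12, SE 0.26, adjusted p = 0.00644) and kept that call in all 22 alternatives, at -0.67 with plain totals (adjusted p = 0.0467). Since Kdm3b passed the main filter through blood alone, it was also read with the reads filter, which all its libraries exceeded. The adjusted p was then 0.00608. It was higher in blood than in bone marrow by 0.91 on the log2 scale (SE 0.26, adjusted p = 0.0243, and 0.0280 with the reads filter). That call was lost in 7 of 22 alternatives, including those that left out bone marrow replicate 1, 2 or 3 or blood replicate 2 or 3, with adjusted p between 0.00489 and 0.0763 over the alternatives. Between tumor and bone marrow the difference was -0.21 (95% interval -0.81 to 0.40). Gm26538, a lincRNA gene on the other strand with at most 53 reads in any library, shares 3468 exon bases with Kdm3b. The libraries do not mark strand, so reads of the pair cannot be told apart.

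A ratio of 2 genes of a library does not depend on how the libraries were scaled. The log2 ratio of Kdm3b to Kdm3a was -0.81, -0.87 and -0.61 for bone marrow, -0.95, -1.12 and -0.96 for blood and -3.11, -3.14 and -3.29 for tumor. The tumor libraries lay close together and far below every other library. The ratio was -3.18 ± 0.10 (SD, n = 3) for tumor, -1.01 ± 0.10 for blood and -0.76 ± 0.14 for bone marrow. In the exact two-sided permutation test of 3 against 3 libraries the p was 0.1 for each pair of compartments, the smallest that this design can give, and 0.185 after adjustment over 8 ratios and 24 comparisons.

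The window before the outermost Kdm3a start, 1 of 3, is shown because the gene rose in tumor, and that of Kdm4a because it fell. Kdm1a and Kdm4c are the other genes that were called against both compartments. RefSeq windows of 250 bases before a transcript start were at hand for 6 of the 10 genes and not for Kdm2a, Kdm3b, Kdm4b and Kdm6b. They were searched on both strands for the hypoxia response cores ACGTG and GCGTG, which are printed in capitals. Of 32851 such windows in the genome, 16.6% held ACGTG, 28.2% held GCGTG and 38.6% held either core. Only bases outside the exons of the gene are printed, each 5' to 3' on the strand of the gene, on GRCm38.p6. A match is a run of letters and not a shown binding site.
Kdm3a, chr6:71632991-71633167, minus strand: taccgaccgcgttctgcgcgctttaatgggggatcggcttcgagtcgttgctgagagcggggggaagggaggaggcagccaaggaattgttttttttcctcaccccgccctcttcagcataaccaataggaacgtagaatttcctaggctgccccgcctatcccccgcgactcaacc
Kdm4a, chr4:118180044-118180293, minus strand: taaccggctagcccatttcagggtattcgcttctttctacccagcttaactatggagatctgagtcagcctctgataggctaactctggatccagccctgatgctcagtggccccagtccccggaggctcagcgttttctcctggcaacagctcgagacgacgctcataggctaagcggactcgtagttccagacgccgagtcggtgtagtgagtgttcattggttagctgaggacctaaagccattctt
Kdm1a, chr4:136602724-136602973, minus strand: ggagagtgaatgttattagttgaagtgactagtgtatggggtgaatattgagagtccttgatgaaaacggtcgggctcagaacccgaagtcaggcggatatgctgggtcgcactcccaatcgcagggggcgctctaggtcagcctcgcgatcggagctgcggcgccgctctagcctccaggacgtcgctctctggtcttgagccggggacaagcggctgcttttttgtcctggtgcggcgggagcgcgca
Kdm4c, a start within the gene, chr4:74251629-74251878, plus strand: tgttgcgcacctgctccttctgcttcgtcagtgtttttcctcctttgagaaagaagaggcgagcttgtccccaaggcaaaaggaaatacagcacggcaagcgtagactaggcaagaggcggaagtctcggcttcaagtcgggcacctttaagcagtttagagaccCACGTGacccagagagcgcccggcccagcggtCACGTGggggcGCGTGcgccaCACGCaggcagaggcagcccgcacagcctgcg
The 177 bases of Kdm3a hold neither core, and the 1 GCGTG of its 250-base window lies in the 73 exon bases that are not printed. The windows of Kdm4a and Kdm1a hold neither. The window of the Kdm4c start within the gene holds 6 matches, of which the 2 runs of CACGTG count on both strands. The window before the outermost start of Kdm4c holds 0 matches and 0 CpG and, unlike that of Kdm3a, is not printed. The windows held 20 CpG for Kdm3a, 12 for Kdm4a, 21 for Kdm1a and 19 for the Kdm4c start within the gene, where the median of all windows was 6. Of the windows not printed, those of the 2 other Kdm3a starts held 0 matches, with 31 and 0 CpG, the 4 of Kdm2b held 1 or 2 matches each and that of Kdm5b held 2.

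Kdm4a, Kdm4b and Kdm4c encode demethylases of trimethylated H3K9 and H3K36. Kdm4a (ENSMUSG00000033326.14, chr4:118136957-118180043, minus strand) had -0.20, -0.17 and -0.41 log2 FPKM for bone marrow, 0.30, 0.06 and 0.12 for blood and -1.13, -1.22 and -1.67 for tumor, which were 107 to 140 reads in tumor and 210 to 251 elsewhere. Every tumor library was below every other library. Kdm4a was 2.83-fold lower in tumor than in blood (log2 fold change -1.50, SE 0.22, adjusted p = 0.000585) and 2.11-fold lower than in bone marrow (-1.08, SE 0.22, adjusted p = 0.00403). Kdm4a too passed the main filter through blood alone. With the reads filter the adjusted p was 0.000528 and 0.00369. Both calls were kept in all 22 alternatives, with an adjusted p of at most 0.0448. Against bone marrow the difference was -0.63 with plain totals and -1.64 with quantile normalization. In blood against bone marrow the libraries did not overlap, but the difference of 0.43 (95% interval -0.09 to 0.94) did not pass the test (adjusted p = 0.157).

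Kdm4c (ENSMUSG00000028397.12, chr4:74242497-74405860, plus strand) is the longest of the 10 genes, with a span of 163364 bases and 5823 bases of merged exons. It had -0.95, -0.69 and -1.01 log2 FPKM for bone marrow, -1.12, -1.11 and -1.46 for blood and -2.36, -2.19 and -2.28 for tumor. Tumor libraries were the lowest and lay close to each other, with 197 to 270 reads against 539 to 571 in bone marrow. Kdm4c, read with the reads filter, was 2.63-fold lower in tumor than in bone marrow (log2 fold change -1.40, SE 0.23, adjusted p = 0.00157), a call kept in all 15 alternatives. Against blood it was 2.07-fold lower (-1.05, SE 0.23, adjusted p = 0.00541). With plain totals that difference was -0.60, with an adjusted p of 0.0523. Blood and bone marrow differed by -0.35 (95% interval -0.88 to 0.19).

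Kdm4b (ENSMUSG00000024201.11, chr17:56326062-56402870, plus strand) did not share this pattern. Its libraries had -1.13, -0.99 and -1.31 log2 FPKM for bone marrow, -2.92, -1.75 and -0.99 for blood and -1.98, -0.19 and -0.74 for tumor. Those are 206 to 234 reads in bone marrow but 40, 127 and 181 in blood and 121, 509 and 364 in tumor. The bone marrow libraries were close together, and the blood and tumor libraries were spread widely. Tumor differed from blood by 0.92 (95% interval -0.40 to 2.24, adjusted p = 0.211), and 0 of its 3 comparisons passed the test. Against blood the difference was 0.40 when blood replicate 1 was left out and 0.53 or 1.42 when tumor replicate 2 or 1 was, and it was 0.16 with quantile normalization. The interval includes the difference of 1.05 that Kdm3a showed. The log2 ratio of Kdm4b to Kdm4a was -0.93, -0.82 and -0.90 for bone marrow, -3.22, -1.82 and -1.12 for blood and -0.85, 1.03 and 0.93 for tumor. Each tumor library lay above each blood library (exact permutation p = 0.1, adjusted 0.185). The tumor and bone marrow libraries overlapped.

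**Figure D2:**
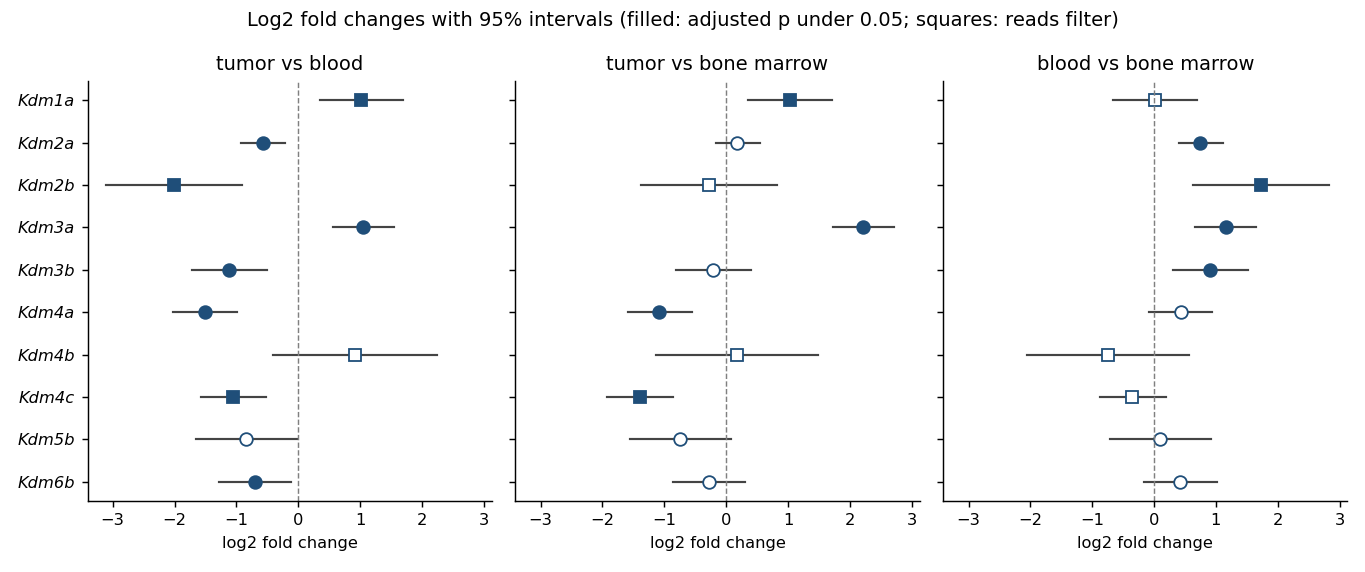
Log2 fold changes (x axis) of the 10 genes (y axis) in tumor vs blood, tumor vs bone marrow and blood vs bone marrow, with 95% intervals from limma as lines. Filled symbols passed an adjusted p of 0.05, and squares are the 4 genes read with the reads filter. Kdm3a is above 0 in all 3 comparisons, and Kdm4a and Kdm4c are below 0 in both comparisons of tumor.

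Kdm1a, also known as LSD1, takes methyl groups off mono- and dimethylated H3K4 and works with Rcor1 and the repressors Gfi1 and Gfi1b in blood cells. Kdm1a (ENSMUSG00000036940.14, chr4:136550540-136602723, minus strand) had -2.66, -2.39 and -2.30 log2 FPKM for bone marrow, -2.19, -2.37 and -2.76 for blood and -1.28, -1.26 and -1.70 for tumor. These were 55 to 70 reads for bone marrow, 36 to 56 for blood and 127 to 164 for tumor. Every tumor library was above every other, and bone marrow and blood overlapped. The log2 fold change under the reads filter was 1.02 (SE 0.29, adjusted p = 0.0182) against blood and 1.04 (SE 0.29, adjusted p = 0.0209) against bone marrow. The call against blood was lost without blood replicate 3 and the call against bone marrow without bone marrow replicate 1. Both were lost under quantile normalization, where the differences shrank to 0.09 (adjusted p = 0.839) and 0.39 (adjusted p = 0.369). Blood and bone marrow differed by 0.01 (95% interval -0.67 to 0.69). Luzp1 lies opposite to Kdm1a with 0 shared exon bases and at most 163 reads.

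Of its partners, Rcor1 was higher in tumor than in blood by 0.80 on the log2 scale (SE 0.26, adjusted p = 0.0310, 49 to 189 reads), and its difference from bone marrow was 0.31 (adjusted p = 0.359). Gfi1b was higher in tumor than in both, by 1.24 (adjusted p = 0.0133) and 1.56 (adjusted p = 0.00555), on 10 to 67 reads. Gfi1 had 32 to 76 reads in the bone marrow libraries and 0 to 8 in those of blood and tumor.

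Kdm2a and Kdm2b encode demethylases of H3K36, and Kdm2b also brings a Polycomb complex to unmethylated CpG islands. Kdm2a (ENSMUSG00000054611.15, chr19:4314419-4398285, minus strand) had 0.46, 0.66 and 0.47 log2 FPKM for bone marrow, 1.38, 1.10 and 1.36 for blood and 0.68, 0.87 and 0.58 for tumor. Blood was above both other compartments in every library, and tumor and bone marrow overlapped. The rise from bone marrow to blood was 0.75 (SE 0.15, adjusted p = 0.00527), and the fall from blood to tumor was -0.57 (SE 0.15, adjusted p = 0.0117). The latter rests on the scaling. With plain totals it was -0.12 (adjusted p = 0.520), and the difference of tumor from bone marrow, 0.18 as scaled, was then 0.64 (adjusted p = 0.00865). The rise in blood stayed at 0.76. Plain totals shifted the median of all genes by 0.45 in tumor against blood, by 0.46 in tumor against bone marrow and by 0.00 in blood against bone marrow.

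Kdm2b (ENSMUSG00000029475.16, chr5:122870665-122989823, minus strand) had -2.92, -3.96 and -2.86 log2 FPKM for bone marrow, -1.62, -1.61 and -1.32 for blood and -4.20, -2.77 and -3.60 for tumor. In reads these were 105, 43 and 109, then 153, 218 and 224, then 40, 132 and 78. All blood libraries were above all others. Kdm2b, read with the reads filter, was 4.02-fold lower in tumor than in blood (log2 fold change -2.01, SE 0.48, adjusted p = 0.00785), a call that held in all 15 alternatives. Tumor and bone marrow differed by -0.27 (adjusted p = 0.668), which became a call under quantile normalization (-1.77, adjusted p = 0.0315). The rise from bone marrow to blood was 1.73 (SE 0.48, adjusted p = 0.0276). It was lost in 7 of 15 alternatives, including those that left out bone marrow replicate 2 or blood replicate 1, 2 or 3, and the adjusted p over the alternatives was 0.00136 to 0.0826. Rnf34, a ubiquitin ligase gene with up to 1215 reads, lies on the other strand and shares 627 exon bases with Kdm2b, so their reads cannot be told apart there. The log2 ratio of Kdm2b to Kdm2a was -4.23 ± 0.62 (SD, n = 3) for tumor, -2.80 ± 0.18 for blood and -3.77 ± 0.74 for bone marrow, with the blood libraries above all others (exact permutation p = 0.1, adjusted 0.185).

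Kdm5b encodes a demethylase of trimethylated H3K4, the mark of active promoters. Kdm5b (ENSMUSG00000042207.16, chr1:134560171-134635285, plus strand) had 1.18, 1.05 and 0.91 log2 FPKM for bone marrow, 0.80, 0.99 and 1.65 for blood and -0.42, 0.85 and 0.49 for tumor. Tumor was below bone marrow in all libraries and overlapped with blood through its replicate 2. No comparison passed the test. The difference was -0.84 in tumor against blood (95% interval -1.66 to -0.02, adjusted p = 0.0698) and -0.74 in tumor against bone marrow (-1.56 to 0.08, adjusted p = 0.111). Both passed without tumor replicate 2 (-1.11, adjusted p = 0.0297, and -1.01, adjusted p = 0.0475) and with limma-voom on the recovered reads (adjusted p = 0.0212 and 0.0397). Against blood, quantile normalization also gave a call (-1.01, adjusted p = 0.0464). Without tumor replicate 1, the lowest library, the differences were -0.47 (adjusted p = 0.184) and -0.37 (adjusted p = 0.304), and with plain totals they were -0.39 (adjusted p = 0.358) and -0.29 (adjusted p = 0.514). Across libraries Kdm5b varied in the same order as Kdm4b within tumor and within blood, where replicate 1 was the lowest for both genes. Kdm5a, its paralog, had 0.59 ± 0.15 (SD, n = 3) for tumor, 0.52 ± 0.32 for blood and 0.64 ± 0.10 for bone marrow, with 0 of 3 comparisons called.

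Kdm6b, also known as JMJD3, opens genes under Polycomb by taking methyl groups off H3K27. Kdm6b (ENSMUSG00000018476.7, chr11:69398508-69413675, minus strand) had 2.89, 2.85 and 2.44 log2 FPKM for bone marrow, 3.18, 2.81 and 3.46 for blood and 2.36, 2.91 and 2.09 for tumor. The libraries of all compartments overlapped. The difference of tumor from blood, -0.70 (SE 0.25, adjusted p = 0.0421), passed the test narrowly. It was lost in 13 of 23 alternatives, including those that left out bone marrow replicate 1 or 2, blood replicate 1 or 3 and tumor replicate 1 or 3, and the adjusted p ranged from 0.0115 to 0.372. Tumor differed from bone marrow by -0.27 (95% interval -0.86 to 0.31) and blood from bone marrow by 0.42 (-0.16 to 1.01). The paralog Kdm6a had 203 to 443 reads and was lower than Kdm6b in every library, by 3.17 to 4.56 on the log2 scale as deposited. Kdm6b had 482 to 862 reads, and in tumor replicate 3 it had 514 against 443 of Kdm6a. The span behind the Kdm6b values is 15168 bases, and the gap depends in part on the gene length used. No merged exon length was applied to Kdm6a. Kdm6bos, antisense to Kdm6b over 286 exon bases, had at most 14 reads.

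Ezh2 encodes a methyltransferase that writes the mark which Kdm6b removes. The log2 ratio of Kdm6b to Ezh2 was 5.06, 5.94 and 5.01 for bone marrow, 8.82, 8.47 and 9.35 for blood and 5.01, 5.43 and 4.24 for tumor. The blood libraries stood above all others (exact permutation p = 0.1 against each, adjusted 0.185), and bone marrow and tumor overlapped. Ezh2 itself, with the reads filter, was higher in tumor than in blood by 3.29 (SE 0.40, adjusted p = 0.000252), on 5 to 117 reads. The blood libraries held only 5, 7 and 5 reads of Ezh2, so the ratio in blood rests on few reads. The Ezh2 difference between blood and bone marrow was -3.12 (adjusted p = 0.000868). The paralog Ezh1, with 431 to 1087 reads, was lower in tumor than in blood (-1.41, SE 0.16, adjusted p = 0.000172) and bone marrow (-0.68, SE 0.16, adjusted p = 0.00848). The log2 ratio of Kdm6b to Kdm1a was 3.87 ± 0.28 (SD, n = 3) for tumor, 5.59 ± 0.55 for blood and 5.18 ± 0.41 for bone marrow, with every tumor library below every other (exact permutation p = 0.1 against each, adjusted 0.185).

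**Figure D3:**
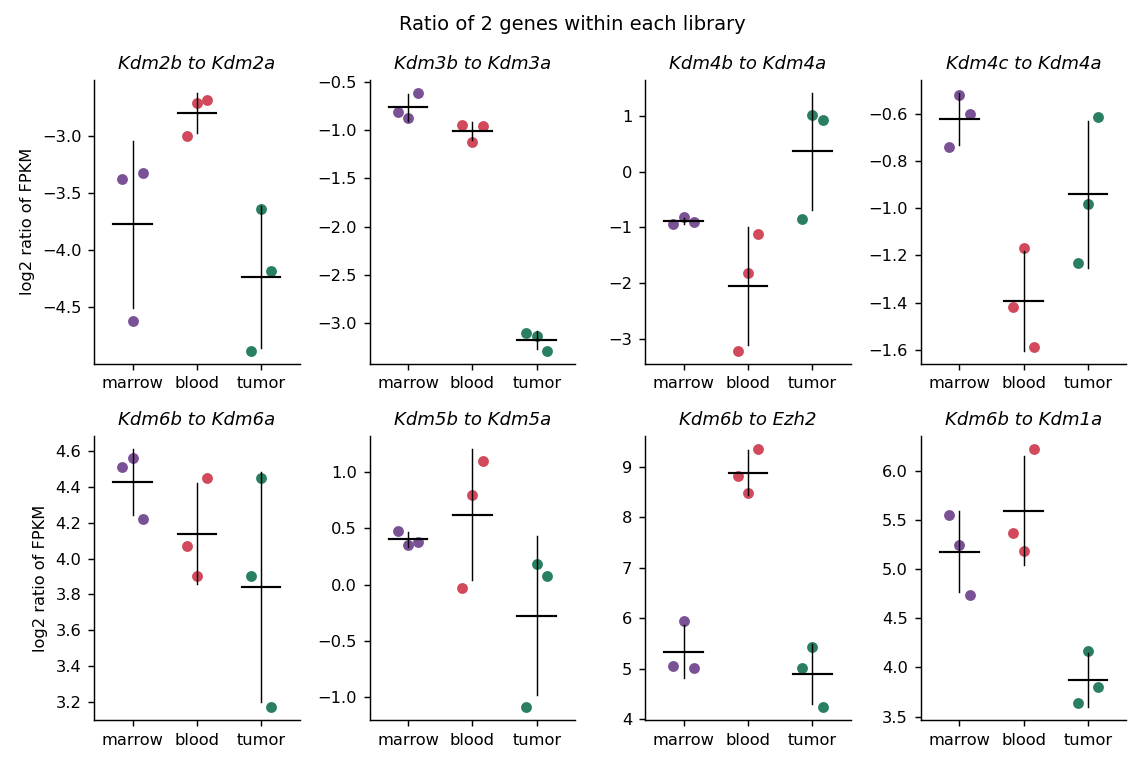
Log2 ratio of FPKM (y axis, a scale of its own in each panel) of 2 genes within each library of bone marrow, blood and tumor (x axis), which is independent of library scaling. Points are libraries, horizontal bars are means and vertical lines are 1 SD to each side. Kdm3b to Kdm3a separates tumor at -3.11 to -3.29 from all other libraries. Kdm6b to Ezh2 separates blood at 8.47 to 9.35, where Ezh2 had 5 to 7 reads per library.

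The order of the 10 genes within a compartment depended on the gene length used. As deposited, Kdm6b was the highest in bone marrow (2.73 ± 0.25 log2 FPKM, SD, n = 3), blood (3.15 ± 0.33) and tumor (2.45 ± 0.42), and in tumor Kdm3a (2.42 ± 0.39) was within its spread. Next in the tumor libraries came Kdm2a (0.71 ± 0.15) and Kdm5b (0.31 ± 0.66), which did not differ beyond their spread, and Kdm2b was last (-3.52 ± 0.72). When the recovered reads were set against the merged exons of GENCODE M21 instead, Kdm3a led in tumor with 4.84 ± 0.39, above Kdm6b with 3.58 ± 0.42 by more than their spread. Kdm6b, Kdm2a (3.25 ± 0.15) and Kdm4b (3.0 ± 0.91) then followed without a gap beyond the spread. On that scale Kdm4c (3.93 ± 0.17) and Kdm6b (3.85 ± 0.25) were the highest in bone marrow and did not differ beyond their spread, and Kdm4c held rank 4 in blood and rank 5 in tumor. In bone marrow Kdm3a held rank 7 on that scale, in blood rank 3 and in tumor rank 1. Kdm1a and Kdm2b held the last 2 ranks in bone marrow on both scales. Whether reads in introns were counted is not given in the sources used here, so neither length is known to fit the reads better. Differences between compartments do not depend on the length.

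**Figure D4:**
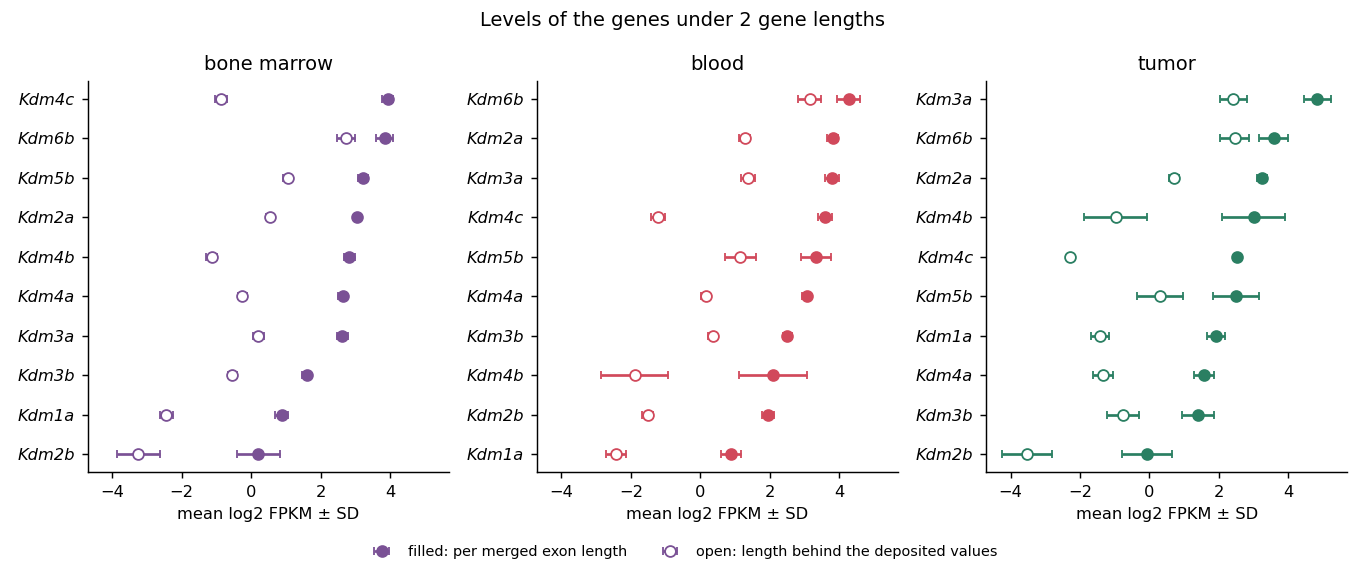
Mean log2 FPKM (x axis, error bars 1 SD, n = 3 libraries) of the 10 genes (y axis) in bone marrow, blood and tumor. Open points use the length behind the deposited values and filled points the merged exon length, by which the genes are ordered. Kdm4c moves most between the scales, and Kdm3a is the highest in tumor by merged exons with 4.84.

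The genes most like Kdm3a across the 9 libraries, among the 7794 tested, were Bnip3 (Pearson's r = 0.994), Bcl2l1 (0.994), Sqstm1 (0.991), 4933434E20Rik (0.990) and Cd14 (0.989). Bnip3 encodes a mitophagy receptor, Bcl2l1 an inhibitor of apoptosis, Sqstm1 an autophagy adaptor and Cd14 a coreceptor for lipopolysaccharide. Bnip3 had a mean of 1.53 log2 FPKM for bone marrow, 3.46 for blood and 5.16 for tumor, and Cd14 had 5.58, 8.47 and 10.94. Kdm3a had the largest sum of its 2 tumor differences among the 10 genes (3.27) and Kdm4a the lowest (-2.58). Most like Kdm4a were Pilrb1 (0.994), Ublcp1 (0.994), Ccpg1 (0.993), Oas3 (0.992) and Ankfy1 (0.992). The 9 libraries fall into 3 compartments, so these values describe a shared order of the compartments and carry no test.

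The other lists are counted, and their named genes tested, with the reads filter, so the shares of all genes given above for it (52.6%, 43.7% and 28.9%) apply. Counts with plain totals stand beside other numbers. Of all 17714 genes, 7305 were then higher and 2492 lower in tumor than in blood, and 6290 and 2097 against bone marrow. Of the 16 genes listed as other demethylases or their relatives, 3 were higher and 3 lower in tumor than in blood. The 3 higher were Hr (0 to 60 reads), Jmjd6 and Mina, and the 3 lower were Kdm5c, Kdm7a and Phf8. Of the 16 genes, 1 was higher and 3 lower in tumor than in bone marrow, and 1 higher and 1 lower in blood than in bone marrow. Their median log2 fold changes were -0.40, -0.03 and 0.04. With plain totals 4 were higher and 1 lower in tumor than in blood, and 5 higher and 1 lower than in bone marrow. Kdm7a, a demethylase of H3K9 and H3K27, was lower in tumor than in blood and bone marrow, with log2 differences of -1.76 and -1.30 (SE 0.18, adjusted p = 0.000104 and 0.000608). Kdm7a had 0.58 ± 0.29 log2 FPKM (SD, n = 3) for tumor, 2.33 ± 0.22 for blood and 1.88 ± 0.03 for bone marrow. Jmjd1c, the relative of Kdm3a and Kdm3b, was higher in blood than in bone marrow by 1.26 (SE 0.25, adjusted p = 0.00646), and its tumor comparisons were not called. Jmjd1c was named after its values were seen.

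Of 31 lysine methyltransferase genes, 9 were called higher and 13 lower in tumor than in blood, 5 and 6 against bone marrow, and 6 and 6 from bone marrow to blood. Their medians were -0.45, -0.19 and 0.16, beside 0.50, 0.29 and 0.00 over all genes. Over the 7794 genes of the main filter the medians were -0.17, -0.21 and -0.04. Setd1b and Kmt2d, which methylate H3K4, were lower in tumor than in both. Setd1b differed by -1.58 from blood and -1.64 from bone marrow (SE 0.22, adjusted p = 0.000544 and 0.000526), and Kmt2d by -1.38 and -1.08 (SE 0.15, adjusted p = 0.000141 and 0.000631). Suv420h2, which methylates H4K20, and Nsd1, which methylates H3K36, were also lower in tumor than in both, with the nearer difference at -0.89 and -0.74. Smyd5 was higher than in both, by 1.69 and 1.43 (SE 0.30, adjusted p = 0.00167 and 0.00470), on 29 to 247 reads, and exceeded 0 log2 FPKM in the tumor libraries alone. Smyd2, Dot1l, Suz12 and Ehmt2 did not reach the main filter and were also called higher than in both. With the reads filter, 5 genes of the list were thus higher and 5 lower than in both. Smyd2 differed by 5.93 and 3.12 (SE 0.68, adjusted p = 0.000175 and 0.00607), on 1 to 180 reads. Dot1l was higher than in blood by 3.03 (SE 0.32, adjusted p = 0.000124), on 18 to 434 reads. With plain totals 10 genes of the list were higher and 8 lower in tumor than in blood, and 6 higher and 4 lower than in bone marrow.

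Among 19 partners of the demethylases, 4 were higher and 4 lower in tumor than in blood, 3 and 4 in tumor against bone marrow, and 4 and 5 in blood against bone marrow. Skp1a, a subunit shared by Kdm2b complexes and ubiquitin ligases, was higher in tumor by 0.88 and 0.84 (SE 0.14, adjusted p = 0.00122 and 0.00190).

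Other enzymes outside the histone demethylases also use oxygen and 2-oxoglutarate. Of 11 such genes, 6 were higher and 1 lower in tumor than in blood, 6 higher and 0 lower than in bone marrow, and 3 higher and 0 lower in blood than in bone marrow, beside 32.4%, 25.2% and 12.6% of all genes higher. Their medians were 1.5, 1.58 and 0.47. Egln3, which marks hypoxia-inducible factor for degradation when oxygen is present, was higher in tumor by 2.95 and 4.78 (SE 0.30, adjusted p = 9.65e-05 and 1.07e-05) on 100 to 4900 reads. P4ha1, a collagen prolyl hydroxylase, was higher by 2.94 and 4.45 (SE 0.28, adjusted p = 7.21e-05 and 1.1e-05). Alkbh5, an RNA demethylase, was higher by 1.11 and 1.58 (SE 0.36, adjusted p = 0.0295 and 0.00744). P4ha2 (0 to 171 reads) and Egln1 (10 to 156 reads) did not reach the main filter and were also called higher than in both. Hif1an, another inhibitor of hypoxia-inducible factor, was lower than in blood (-0.83, SE 0.24, adjusted p = 0.0202). Its difference from bone marrow, -0.68, did not pass with the reads filter (adjusted p = 0.0525) and did with the main filter (adjusted p = 0.0453). With plain totals 7 genes of the list were higher and 0 lower in tumor than in blood, and 6 higher and 0 lower than in bone marrow. Fibroblasts also express P4ha1, and their markers were 1285 to 1553 RPM in tumor and at most 9.99 elsewhere. Their part in its rise was not tested.

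Of the 14 genes that supply 2-oxoglutarate or its competitors, 7 were higher and 6 lower in tumor than in blood, 3 and 5 in tumor against bone marrow, and 1 and 7 in blood against bone marrow. Idh2, the mitochondrial enzyme that makes 2-oxoglutarate with NADP, was higher in tumor by 3.12 and 1.17 (SE 0.35, adjusted p = 0.000166 and 0.0272), and Idh3b by 1.75 and 0.59 (SE 0.17, adjusted p = 8.29e-05 and 0.0237). D2hgdh, which turns D-2-hydroxyglutarate into 2-oxoglutarate, was lower, with differences of -1.27 and -1.91 (SE 0.29, adjusted p = 0.00613 and 0.000928). Sdhb, Ogdh and Idh3g were also lower in tumor than in both, with the nearer difference at -0.80, -0.62 and -0.44. With plain totals, 7 genes of the list were higher and 1 lower in tumor than in blood, and 4 higher and 2 lower than in bone marrow.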

How the data were processed

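RNA of sorted neutrophils was made into SMARTSeq v2 libraries. The authors mapped reads with STAR (2.5.2b) to GRCm38, counted them per gene with featureCounts (1.5.0) and computed log2 FPKM with edgeR (3.8.6), per the labels and the methods of the study. The deposited log2 FPKM values were analysed here. From their steps, whole reads were recovered for all 46517 genes (tolerance 0.001 reads), 4580807 to 7949367 per library. The deposited values carry scaling factors of 1.08 to 1.22 in the tumor libraries and 0.796 to 0.881 in those of bone marrow and blood. PCR duplicates were not removed here, so read counts can understate the counting error.

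The 7794 genes that exceeded 0 log2 FPKM in 3 or more libraries entered a limma fit (version 3.58.1, R 4.3.3) with 1 coefficient per compartment and eBayes moderation with an intensity trend, and p-values were adjusted by Benjamini-Hochberg at 0.05. The reads filter was an alternative, as were other filters, scalings, limma-voom and libraries left out. Ratios were tested with exact two-sided permutation tests. Each library is a pool of mice, and p-values measure the spread between pools. Gene coordinates are those of GENCODE M21 on GRCm38. The 10 genes and the gene lists were chosen with earlier results of these data known. All demethylase genes were named, and of each other list the 4 genes per direction with the largest smaller change among those called in both tumor comparisons with the main filter; their values are those of the reads filter. For the genes with the largest and lowest tumor change, the 5 genes of highest r were named. Genes that are discussed as a paralog, a partner or a marker, such as Ezh2, Rcor1 and Gfi1b, were named outside this rule. So were Smyd2, Dot1l, Ehmt2, Suz12, P4ha2 and Egln1, and the genes behind the counts of the other demethylases. Protein sequences were not used here.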

Additional observations from a re-analysis of the deposited data

How the results depend on the processing

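Of 588 recomputed log2 differences of the 10 genes, 535 kept their direction and side of the threshold, 35 lost and 7 gained a call, and 11 turned sign, each of these 11 without a call before or after. The calls kept under every alternative run were all 3 of Kdm3a, both tumor calls of Kdm4a, tumor against blood of Kdm3b and Kdm2b, and tumor against bone marrow of Kdm4c. Over the main filter, which 6 of the genes passed, Kdm3b and Kdm4a through blood alone, the number called higher in tumor than in blood, 1, was 2 with no filter, with the reads filter and with limma-voom. The number lower, 4, was 2 with a stricter filter (log2 FPKM over 1), with plain totals and with a required log2 fold change of at least 1, and 7 with limma-voom. Against bone marrow the number higher, 1, was 2 with no filter, the reads filter, plain totals and limma-voom, and the number lower, 1, was 2 with no filter and the reads filter, 0 with the stricter filter, 3 with limma-voom and 1 to 2 with a library left out (2 without tumor replicate 2). The number higher in blood than in bone marrow, 3, was 1 with the required fold change. Kdm3b and Kdm4a did not reach the stricter filter, so their calls were not tested there rather than lost. No filter, the reads filter and limma-voom took in all 10 genes in place of 6, so their counts include genes outside the main filter. Signs turned for Kdm2b (0.18), Kdm3b (0.25) and Kdm6b (0.18) in tumor against bone marrow with plain totals, and for Kdm4b (-0.28) with quantile normalization. With a library left out, sign turned within the ranges of Kdm2b (-0.65 to 0.07), Kdm3b (-0.43 to 0.03) and Kdm4b (-0.22 to 0.68) in tumor against bone marrow, of Kdm1a (-0.11 to 0.17, with -0.09 and -0.02 between) and Kdm5b (-0.15 to 0.27) in blood against bone marrow, and of the ratios of Kdm6b to Kdm6a in tumor against blood (-0.61 to 0.03) and Kdm5b to Kdm5a in blood against bone marrow (-0.02 to 0.55). With 1 added to the FPKM the ratios of Kdm2b to Kdm2a (0.07 and -0.21), Kdm4c to Kdm4a (0.04) and Kdm6b to Kdm6a (0.17) turned. The cause was not tested. Alternatives on the reads filter were added after seeing the data.

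The paper describes the 3 compartments as taken from the same mice, pooled, in 3 independent experiments, so the pools may not be independent. The library titles do not say which libraries share mice. The replicate numbers were not shown to pair libraries, since deviations of the same number correlated at -0.07 to 0.11. With a replicate block, the genes called higher numbered 1, 1 and 3 and those called lower 3, 1 and 0 in tumor against blood, tumor against bone marrow and blood against bone marrow. The calls lost were those of Kdm6b in tumor against blood (adjusted p = 0.0748) and Kdm2b in blood against bone marrow (adjusted p = 0.0583).

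Over all genes, 4880, 4311 and 3446 were called in tumor against blood, tumor against bone marrow and blood against bone marrow. With the reads filter 9314 and 7734 were called in the comparisons of tumor, with limma-voom 9759, 8914 and 5361, and with no filter 7532 in tumor against blood. Calls that were higher made up 45.0% and 40.5% in the comparisons of tumor as scaled, 60.6% and 61.4% with plain totals and 61.6% and 57.8% with the reads filter.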
